A study of Mus musculus with 8 samples.

Results

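Hepatocytes, the epithelial cells of the liver parenchyma, were picked out of single-cell RNA-seq data on mouse organ grafts (liver, heart and kidney). They were chosen by their own measured UMI counts: a cell was taken when it held at least 500 unique molecular identifiers (UMIs, one per captured transcript), when at most 10% of them were mitochondrially encoded, when Alb, Apoa1, Apoa2, Ttr, Trf and Fgb gave at least 5 UMIs from at least 2 of these 6 genes, and when the T cell genes Cd3d, Cd3e, Cd3g and Trac gave at most 1 UMI in sum. The rule found 74 cells, called rule cells below, among the 47541 cells of 8 libraries that passed the UMI and mitochondrial limits, out of 80000 barcodes. They were 45 of 10000 cells of the liver solid organ library (liver PC, for parenchymal cells), a share of 0.45% (exact binomial 95% interval 0.328 to 0.602%), and 29 of 9668 cells of the library labelled heart lymphocytes (labelled heart TIL, for tissue-infiltrating lymphocytes), a share of 0.3% (0.201 to 0.431%). The other 6 libraries held 0 such cells, which allowed shares of up to 0.03213% in the labelled liver TIL library and up to 0.37736% in the kidney PC library, the smallest.

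The grafts came from male BALB/c mice and the recipients were C57BL/6 mice, both 8 weeks old. No immunosuppressive drug was given and the grafts were taken on day 7. The donor liver replaced the recipient's own liver, whereas the recipient's own heart stayed in place beside a heart graft. Graft tissue was digested with type II collagenase, lymphocytes were separated on a Ficoll gradient, and the study drew on 2 recipients per organ; each group is 1 library, and whether animals were pooled in it is not given in the sources used here. Cells of 1 library are not replicates, so no test was possible, and every interval below is an exact 95% interval that covers counting error only.

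Hepatocytes make most of the proteins of blood plasma: albumin, the carriers of lipid, iron, hormones and vitamins, the clotting factors and their inhibitors, and much of complement. In the acute phase response, cytokines such as interleukin-6 and interleukin-1 make hepatocytes raise the synthesis of serum amyloid A, haptoglobin, hemopexin, orosomucoid and hepcidin, and glucocorticoids, zinc and cytokines induce the metallothioneins. Hepatocytes normally carry little MHC class I at rest, and interferons raise class I and the guanosine triphosphatases of cell-autonomous defence in them. In a graft, donor class I molecules are themselves targets of recipient T cells.

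The labels and the transcripts disagreed for the 2 lymphocyte libraries. Alb gave 1429 UMIs in liver PC. It gave 1056 in labelled heart TIL but 0 in labelled liver TIL, whereas the cardiac transcripts Myl7 and Acta1 gave 2 and 1 UMIs in the former and 128 and 206 in the latter. The Kupffer cell markers, of the resident macrophages of the liver, gave 3252 UMIs in liver PC, 1483 in labelled heart TIL and 18 in labelled liver TIL. The 2 libraries with rule cells held 19171264 and 9306582 UMIs. T cells, here cells with 2 or more UMIs of the 4 T cell genes, numbered 7339 in liver PC and 6099 in labelled heart TIL and served as the background; cells with at least 5 C1qa, C1qb and C1qc UMIs and at most 1 T cell UMI (C1q-high cells, 1116 and 1307) were a second one. The median depth was 1273 UMIs in rule cells and 1551 in T cells of liver PC, and 850 and 834 UMIs in labelled heart TIL. The 2 libraries shared 155 barcodes, of which 0 belonged to a rule cell; 9 rule cell barcodes also occurred in the other 6 libraries.

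The cells that met the rule were of more than 1 kind. Most of the enzyme-poor ones held enzyme shares no higher than the 99th percentile of T cells, and the name hepatocyte is not used for them. A list of 58 enzymes of amino acid, sugar, fat and drug metabolism, none of which the rule used, held from 0 to 9.13% of a cell's UMIs in liver PC and from 0 to 12.7% in labelled heart TIL. In 23 of the 45 and in 19 of the 29 cells the share was at or above 2%, with medians of 5.92% and 6.13%; these 42 cells are called enzyme-rich below, a division made after the values were seen. In the 22 and 10 enzyme-poor cells the medians were 0.171% and 0.258%, above the T cell medians of 0.068% and 0.125%. Few cells lay near the limit: 5 and 4 cells had shares between 1 and 3%, and the values on either side of it were 1.45% and 2.12% in liver PC and 1.84% and 2.13% in labelled heart TIL. The 99th percentile of T cells was 0.572% and 1.09%. In 4 and 1 of the enzyme-poor cells the share lay above it, and 3 of those 4 had the largest plasma protein shares of the 74. The enzyme-poor cells are called by the rule, without a cell type, and values over all rule cells include them.

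**Figure D1:**
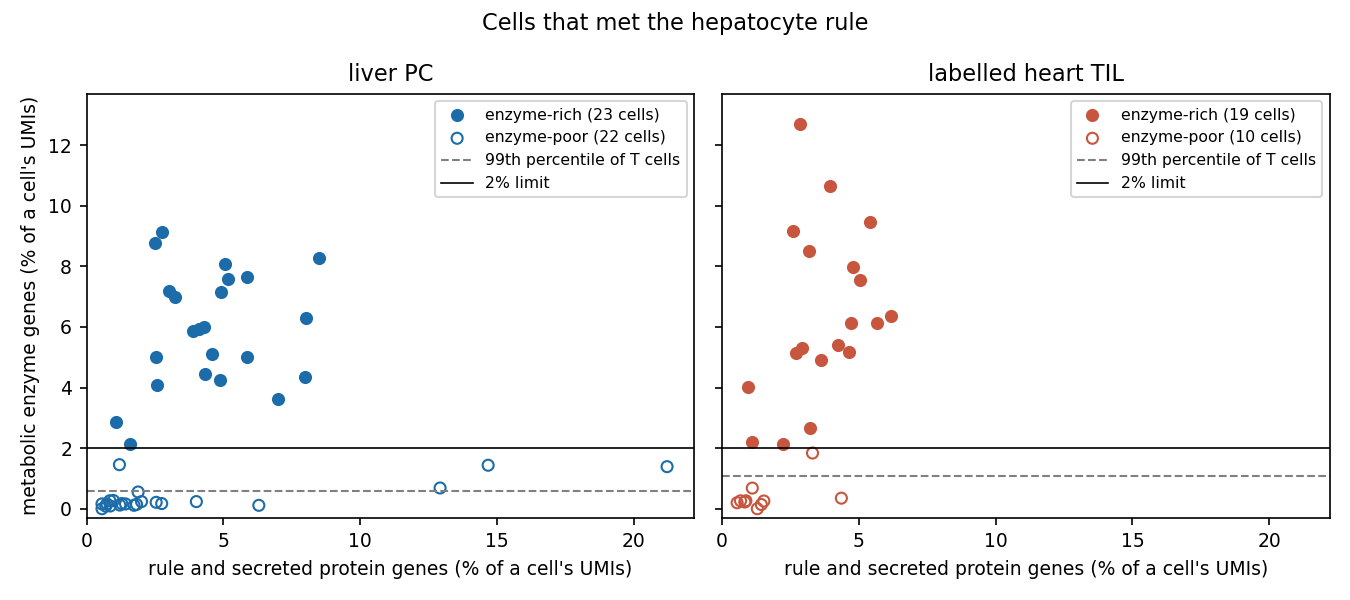
Each point is 1 cell that met the rule; the x axis gives the share of its UMIs from the 6 rule genes and the secreted protein list (%), the y axis the share from the metabolic enzyme list (%), with liver PC on the left and labelled heart TIL on the right. Filled points (23 and 19 cells) lie at or above the 2% limit, open points (22 and 10 cells) below it, and 3 open points of liver PC lie alone at the right with 12.9 to 21.2% on the x axis.

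Enzyme-rich cells also differed from the enzyme-poor ones in genes that had no part in the division. Metallothioneins held a median of 5.72% of the UMIs of an enzyme-rich cell of liver PC and 3.39% in labelled heart TIL, against 0.115% and 0.306% of an enzyme-poor cell. The median share of mitochondrially encoded UMIs was 0.186% in the enzyme-rich and 0.8% in the enzyme-poor cells of liver PC, and 0.331% and 1.01% in labelled heart TIL. The medians of T cells were 0.701% and 0.727%, so the enzyme-rich cells had lower mitochondrial shares than both. The 4 Kupffer cell markers gave 0 UMIs in the enzyme-rich cells of liver PC and 1 in those of labelled heart TIL, the endothelial, stromal and cardiomyocyte markers gave 0 in both, and the cholangiocyte markers gave 1 and 0. RNA of leukocytes was present in them. Levels are given as CPM (counts per 1000000 UMIs, summed over the cells of a class). The C1q genes gave 674 against 2706 in T cells of liver PC and 1038 against 3487 in labelled heart TIL. The 4 neutrophil markers gave 2358 against 8303 and 6355 against 6201.

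The minimum of 5 UMIs and the T cell limit decided membership for many cells. Of 110 and 70 cells that met the minimum with 2 genes, 65 and 41 were left out for more than 1 T cell UMI, and 14 and 17 of those were at or above 2% enzyme UMIs. At exactly 5 rule UMIs, 1 of 8 cells of liver PC and 3 of 9 of labelled heart TIL were enzyme-rich; just outside, at exactly 4 UMIs, 0 of 12 and 3 of 22 were. Over all cells of the 2 libraries 41 and 63 were enzyme-rich, of which 16 and 33 lay within the T cell gate. The largest cell, with 278 rule UMIs of 7564, gave 24.3% of the rule UMIs of the rule cells of liver PC.

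The 6 genes of the rule are given as a description, since they chose the cells. Together they held 1.47% of rule cell UMIs in liver PC and 1.01% in labelled heart TIL, and 1.89% and 1.45% in the enzyme-rich cells. Trf, the iron carrier transferrin, gave 352 UMIs in 42 of 45 cells and 80 UMIs in 25 of 29 cells. Alb, the main plasma protein, gave 201 UMIs in 38 cells and 38 UMIs in 19 cells, a median of 2 and 1 UMIs per enzyme-rich cell. Apoc1, by contrast, gave 297 and 101 UMIs over the same cells. Apoa2, an apolipoprotein of high-density lipoprotein, gave 202 and 77 UMIs, Ttr, which carries thyroid hormone, 167 and 35, Apoa1 120 and 34, and the fibrinogen chain Fgb 101 and 25.

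The same 6 genes were found at a low level in T cells, a cell type not known to make albumin, fibrinogen or these apolipoproteins. T cells held 285 CPM of rule genes (277 to 294) in liver PC and 606 (586 to 626) in labelled heart TIL. By the gate used, these T cells include the 65 and 41 cells that met the rule minimum but held more than 1 T cell UMI. C1q-high cells held 244 and 539, but cells that met the rule were left out of that class. Its cells held at most 4 rule UMIs in each library, where T cells held up to 167 and 37. In T cells with at least 10 T cell UMIs the levels were 176 and 352. In the other 6 libraries T cells held 3.92 to 50.0 CPM, and there Trf alone made up 73.0 to 98.1% of the rule UMIs of the whole library. The median T cell held 0 rule UMIs and the 99th percentile was 0.257% and 0.449% of a cell's UMIs, where the lowest rule cells held 0.121% and 0.198%; the lowest rule cells therefore lay inside the T cell range.

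**Figure D2:**
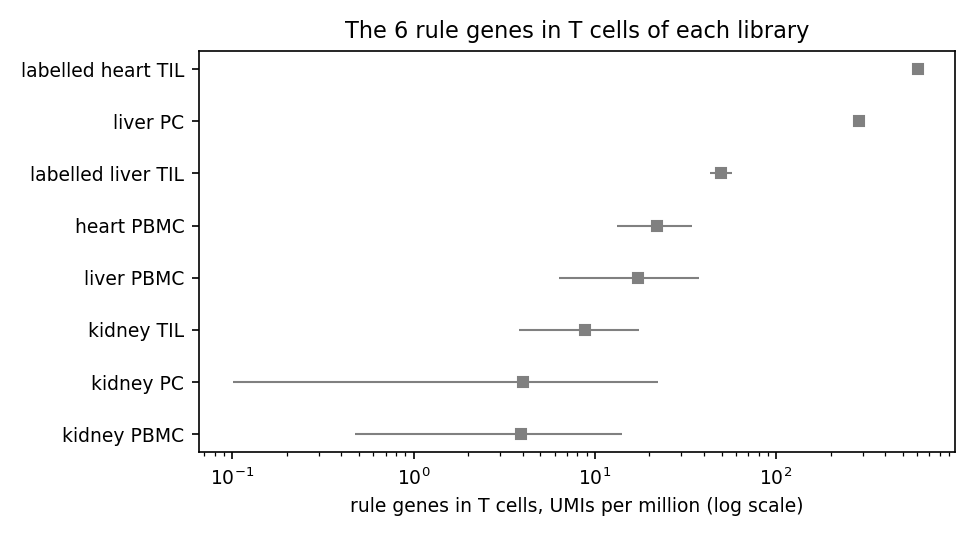
Summed level of the 6 rule genes in T cells, in CPM (x axis, log scale), in each of the 8 libraries (y axis), with exact Poisson 95% intervals. Labelled heart TIL, at 606, and liver PC, at 285, lie above the other 6 libraries, which lie between 3.92 and 50.0.

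The plasma proteins that the rule did not use were well represented. A gene was compared when it held at least 10 UMIs in rule cells and T cells together, and it was counted as higher when the whole interval of its ratio lay above 2, or lower when it lay below 1 / 2. Of 98 listed secreted proteins 77 could be compared in liver PC and 58 were higher in rule cells than in T cells, with 0 lower, where 4.64% of all 13293 genes were higher and 0.429% lower. In labelled heart TIL 24 of 65 were higher and 0 lower, against 2.54% and 0.0786% of 11456 genes. By size alone, without the interval, 17.5% of all genes were at least 2-fold higher in each library, and 42.6% and 59.1% were at least 2-fold lower. In counts simulated at this depth 13236 and 11433 genes were compared. Of these, 5438 and 7176 unchanged genes were at least 2-fold lower by size and 1004 and 847 higher. The lower genes by size were thus near what counting alone gave, and nothing is read from them. The median log2 ratio of the list was 4.53 in liver PC, beside -0.75 for all genes compared, a value that genes with few UMIs pull down. Summed over the list the enzyme-rich cells held 13.5 (12.7 to 14.2) times the T cell level in liver PC and 6.08 (5.44 to 6.76) times in labelled heart TIL. All cells of the rule held 10.7 (10.2 to 11.2) and 4.17 (3.79 to 4.59) times. The size of these ratios depended on the T cell gate. In liver PC the list was at 2283 CPM in T cells and 1023 in those with at least 10 T cell UMIs.

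Among the apolipoproteins, Apoc1 and Apoc3, small proteins of triglyceride-carrying lipoproteins, had high levels. Apoc1 was at 6112 (5383 to 6911) CPM in the enzyme-rich cells of liver PC and 67 in T cells, and at 6031 (4868 to 7388) and 184 in labelled heart TIL. It was found in 23 of 23 and 17 of 19 enzyme-rich cells. Apoc3 was 163 (134 to 198) times the T cell level in liver PC and 33 (20.8 to 50.1) times in labelled heart TIL, with 157 and 24 UMIs. Apoe, which macrophages also make, did not set the cells above these T cells, at 1.12 (0.865 to 1.42) and 0.667 (0.427 to 0.993) times their level. C1q-high cells held 4272 and 5049 CPM against 1588 and 1556 in the enzyme-rich cells. The T cell ratio depended on the gate. In T cells of liver PC with at least 10 T cell UMIs the whole apolipoprotein list, Apoe included, was at 654.8 CPM.

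Of the plasma carriers, 11 of 15 were higher in the enzyme-rich cells of liver PC and 8 of 14 in those of labelled heart TIL, with 0 lower, beside 4.5% and 2.57% of all genes; 2 and 4 were at least 2-fold lower by size alone. Rbp4, which carries retinol, was at 1756 (1377 to 2208) CPM in liver PC and 843 (449 to 1442) in labelled heart TIL, where T cells held 12.7 and 23.2. Gc, the vitamin D binding protein, was 80.8 (58.6 to 109.7) and 26.9 (13.2 to 49.5) times the T cell level, and Ahsg, the mineral-binding fetuin-A, 62 (41.5 to 90.1) and 22.4 (12.4 to 37.6) times. Selenop, which carries selenium and is also made by macrophages, showed smaller ratios of 6.25 (4.2 to 8.96) and 5.86 (2.8 to 10.8). Afm, Afp (the fetal form of albumin) and the pheromone carrier Mup20 gave 0 UMIs in all 74 cells.

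The clotting list, which leaves out the rule gene Fgb, gave 161 UMIs in enzyme-rich cells of liver PC. Of these Fgg gave 39, the fibrinogen-like gene Fgl1 36 and Fga 26. Fgg, a fibrinogen chain, was 43.9 (30.6 to 61.4) times the T cell level in liver PC and 24.1 (13.3 to 40.6) times in labelled heart TIL, and Fga, another chain, 46.1 (29.4 to 69.6) and 18.7 (8.41 to 36.2) times. Serpinc1, which encodes antithrombin, gave 13 and 5 UMIs over all rule cells, prothrombin (F2) 8 and 2, and plasminogen (Plg) 5 and 1. The antitrypsin family genes, inhibitors of neutrophil elastase, were at higher counts: Serpina1b was at 1925 (1526 to 2396) CPM in liver PC against 24.1 in T cells, and at 1297 (792 to 2003) against 32.9 in labelled heart TIL. These copies are near-identical and the authors removed reads that aligned to more than 1 place, so their single levels are uncertain.

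Complement was less sharply divided. C3, the central component, was 4.51 (2.94 to 6.62) times the T cell level in enzyme-rich cells of liver PC and 4.55 (2.26 to 8.18) times in labelled heart TIL. C4bp, an inhibitor of the classical pathway, gave 7 UMIs in enzyme-rich cells of liver PC and 49.2 (18.8 to 109) times the T cell level, and 2 UMIs in labelled heart TIL. Cfb, the factor B of the alternative pathway, gave 0 UMIs in enzyme-rich cells of both libraries, which allows up to 72.2 and 195 CPM, where C1q-high cells held 165 and 192; at this depth a difference could not be shown in labelled heart TIL.

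The machinery of secretion was measured beside its cargo. The list of 22 genes of the endoplasmic reticulum and of vesicle transport held 0.732 (0.615 to 0.864) times the T cell level in enzyme-rich cells of liver PC and 0.683 (0.509 to 0.899) times in labelled heart TIL. Over genes that would give at least 5 UMIs in these cells at their T cell level, the median log2 ratio was -0.85 for 14 of the list beside -0.84 for 1316 genes in liver PC, and -0.78 for 7 beside -0.64 for 531 in labelled heart TIL. This limit leaves out genes that are low in T cells, Herpud1 among them. Herpud1, a gene of the response to unfolded proteins, was the 1 of 22 that was higher in liver PC, at 5.92 (2.83 to 11) times, a count at the background of 4.5% of all genes from which nothing is read, and 0 of 22 were higher in labelled heart TIL.

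Acute phase genes were the second large group. In liver PC 22 of 34 were higher in rule cells than in T cells and 0 were lower, and in labelled heart TIL 13 of 32 were higher and 0 lower. In the enzyme-rich cells the counts were 21 higher and 1 lower in liver PC, where 4.5% of 13274 genes were higher and 0.994% lower, and 12 higher and 0 lower in labelled heart TIL, where the shares of 11443 genes were 2.57% and 0.0961%. The list held 8.14% of all UMIs of the enzyme-rich cells of liver PC and 6.23% in labelled heart TIL, and 12.2 (11.8 to 12.6) and 6.69 (6.27 to 7.13) times the T cell level. Without the metallothioneins and Saa3 the ratios were 13.4 (12.6 to 14.1) and 8.46 (7.57 to 9.42). The whole list was at 6667 CPM in T cells of liver PC and 3364 in those with at least 10 T cell UMIs.

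The promoters of the metallothionein and serum amyloid A genes are shown because Mt1 was found in each enzyme-rich cell and the members of the latter differed in direction. Each run is the 250 bases before the annotated start of transcription, 5′ to 3′ on the strand of the gene, from RefSeq (GRCm38.p6): Mt1 at chr8:94178839-94179088 and Mt2 at chr8:94172368-94172617 on the plus strand, Saa1 at chr7:46742981-46743230 on the minus strand, Saa2 at chr7:46751583-46751832 on the plus strand and Saa3 at chr7:46715677-46715926 on the minus strand. Capitals mark matches on either strand of TGCACNC, a form of the metal response element core, in Mt1 and Mt2. In the Saa genes they mark TTGCNNAAT, a form of the C/EBP motif. Other forms of either motif were not searched and are not marked.
Mt1: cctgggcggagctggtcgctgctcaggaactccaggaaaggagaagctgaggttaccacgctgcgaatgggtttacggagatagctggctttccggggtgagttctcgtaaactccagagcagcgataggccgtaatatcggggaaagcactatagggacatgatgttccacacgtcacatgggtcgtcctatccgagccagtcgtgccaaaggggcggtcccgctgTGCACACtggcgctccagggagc
Mt2: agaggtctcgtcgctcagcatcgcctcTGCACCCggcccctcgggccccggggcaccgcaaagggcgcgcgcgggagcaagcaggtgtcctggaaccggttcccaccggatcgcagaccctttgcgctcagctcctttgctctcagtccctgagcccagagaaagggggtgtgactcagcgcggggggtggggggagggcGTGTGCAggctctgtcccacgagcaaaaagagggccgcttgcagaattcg
Saa1: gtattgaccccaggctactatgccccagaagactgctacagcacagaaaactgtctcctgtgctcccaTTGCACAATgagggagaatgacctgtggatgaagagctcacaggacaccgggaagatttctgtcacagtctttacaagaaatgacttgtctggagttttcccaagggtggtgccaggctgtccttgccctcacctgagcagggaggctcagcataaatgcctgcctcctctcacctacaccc
Saa2: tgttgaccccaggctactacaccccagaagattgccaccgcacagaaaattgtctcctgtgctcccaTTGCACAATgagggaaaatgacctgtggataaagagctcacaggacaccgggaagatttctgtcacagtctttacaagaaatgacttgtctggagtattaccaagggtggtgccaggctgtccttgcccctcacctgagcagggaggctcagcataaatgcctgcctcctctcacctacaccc
Saa3: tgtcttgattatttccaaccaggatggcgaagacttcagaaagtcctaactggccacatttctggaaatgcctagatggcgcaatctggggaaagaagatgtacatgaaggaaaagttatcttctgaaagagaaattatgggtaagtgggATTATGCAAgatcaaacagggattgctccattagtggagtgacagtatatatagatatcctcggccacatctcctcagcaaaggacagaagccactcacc
This form of the metal response core had 1 match in Mt1 and 2 in Mt2, and 10.4% of 32851 promoters of this length hold it. The C/EBP form had 1 match in each Saa promoter and is held by 2.11% of promoters; it lay 182 bases before the start in Saa1, 183 in Saa2 and 100 in Saa3. The windows of Saa1 and Saa2 were identical at 94.8% of aligned bases, whereas Saa3 matched them at 50.2% and 50.6%, and Mt1 and Mt2 matched at 48.1%. A match is a description of the letters and not a bound site.

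Metallothioneins, small proteins that bind zinc and copper, gave high counts. Mt1 gave 17 to 179 UMIs per enzyme-rich cell of liver PC (median 51) and 3 to 58 in labelled heart TIL (median 20), so each of the 42 cells held the transcript. Its level was 34167 (32412 to 35991) CPM in liver PC and 28859 (26239 to 31669) in labelled heart TIL, and 51.3 (48.5 to 54.3) and 28.7 (26 to 31.6) times that of T cells. Mt2 was at 15279 (14113 to 16515) and 8431 (7044 to 10011) CPM, 77.3 (70.8 to 84.2) and 39.8 (32.9 to 47.7) times the T cell level. The enzyme-poor cells held 0 to 18 Mt1 UMIs in both libraries, with medians of 1.5 and 2. The ranges thus met at 17 and 18 UMIs in liver PC and overlapped from 3 to 18 UMIs in labelled heart TIL. When every cell was thinned to 500 UMIs, Mt1 was found in 23 of 23 and 19 of 19 enzyme-rich cells and in 23.1% and 36.0% of T cells (unthinned 55.1% and 54.4%).

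The serum amyloid A genes fell apart into hepatocyte and leukocyte forms. Saa2, secreted into plasma on high-density lipoprotein, gave 0 to 87 UMIs per enzyme-rich cell of liver PC (median 8) and 0 to 16 in labelled heart TIL (median 3). Its level was 102 (89.2 to 115) times that of T cells in liver PC and 28.5 (22.7 to 35.5) times in labelled heart TIL, and that of Saa1 69.6 (59.4 to 81.3) and 22.5 (16.8 to 29.6) times. Saa3, the form that macrophages make, went the other way: it was at 1275 (955 to 1668) CPM in enzyme-rich cells against 3509.9 in T cells and 7406 in C1q-high cells of liver PC, and at 3242 (2407 to 4275) against 5520.3 and 10927 in labelled heart TIL. The T cells also held myeloid marker RNA, so the direction of Saa3 against T cells may depend on the T cell gate. Saa1 and Saa2 share most of their sequence, so reads between them may have been lost or divided by the alignment.

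Other acute phase proteins of the liver were high in the same cells. Orm1, a carrier of basic drugs that rises in inflammation, was found in 23 of 23 and 17 of 19 enzyme-rich cells, at 73.1 (62.6 to 84.9) and 32.9 (24.8 to 43) times the T cell level. Hamp, the hormone hepcidin that blocks iron export, was at 1949 (1548 to 2422) CPM against 14.1 in T cells of liver PC and at 1232 (742 to 1924) against 26.2 in labelled heart TIL. Hpx, which binds free heme, was 38.7 (31.4 to 47.3) and 12.2 (7.76 to 18.3) times the T cell level. The T cells of liver PC held 68.5 CPM of Orm1, 14.1 of Hamp and 65.9 of Hpx, so the enzyme-rich cells stood far above that background. On GRCm38 Orm1 spans chr4:63344560-63348163 and Hamp chr7:30942368-30944032.

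Hp and Lcn2, which neutrophils and other myeloid cells also make, gave smaller ratios. Hp, the hemoglobin carrier haptoglobin, was at 2262 (1828 to 2768) CPM in enzyme-rich cells of liver PC and 474 in T cells, a ratio of 4.77 (3.85 to 5.85). In labelled heart TIL the ratio of Hp was 2.07 (1.24 to 3.24). Lcn2, which withholds iron from bacteria, was 4.37 (3.5 to 5.4) and 6.38 (3.94 to 9.79) times the T cell level. The classical human acute phase protein gene Crp gave 5 UMIs in the rule cells of liver PC and 0 in labelled heart TIL, while Apcs, the main pentraxin of the mouse, gave 28 and 9.

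**Figure D3:**
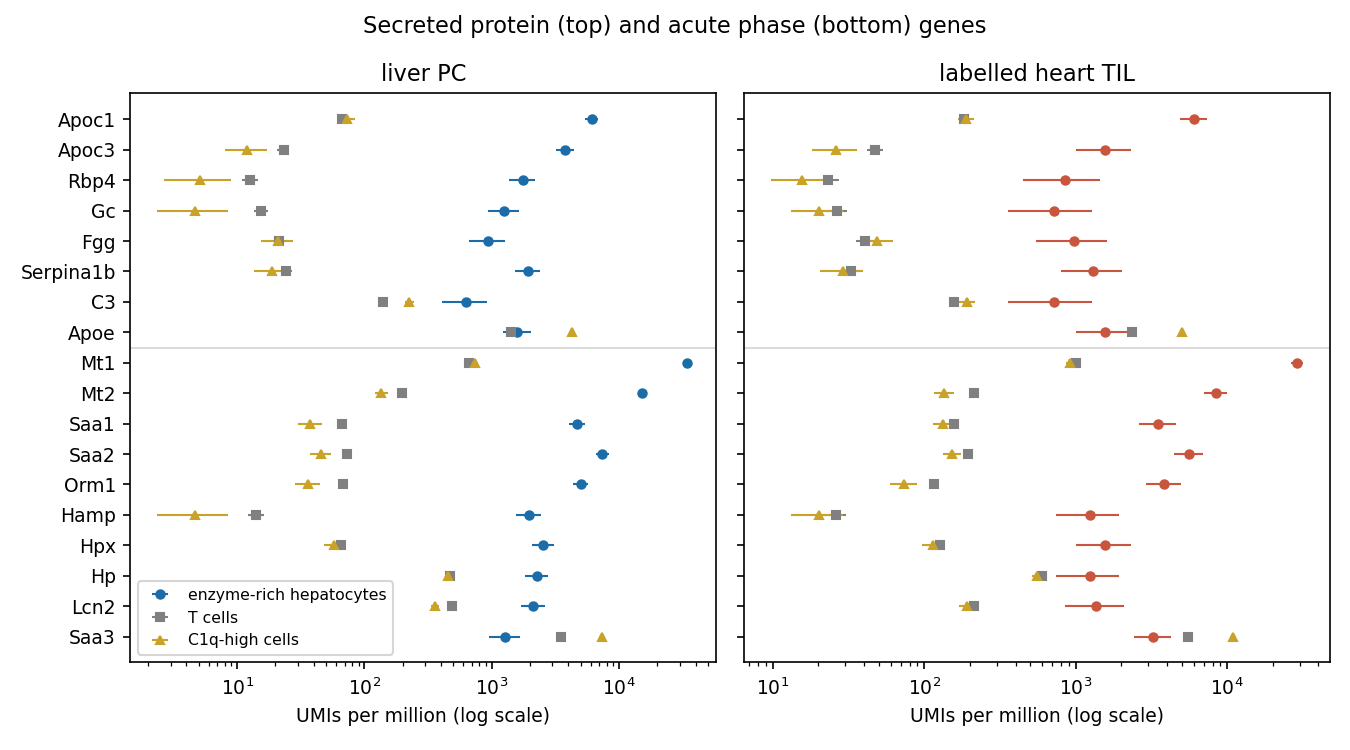
Levels of 8 secreted protein genes (top) and 10 acute phase genes (bottom) in CPM (x axis, log scale) in enzyme-rich hepatocytes (circles), T cells (squares) and C1q-high cells (triangles) of liver PC (left) and labelled heart TIL (right), with exact Poisson 95% intervals. The circles lie to the right of the squares for all genes shown except Saa3, which lies to the left in both libraries, and Apoe, whose circles and squares lie close together with the triangles to their right.

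MHC class I presentation was lower in sum than in T cells, and so were many other genes. Summed over the class I list, the enzyme-rich cells held 0.495 (0.452 to 0.541) times the T cell level in liver PC and 0.594 (0.515 to 0.681) times in labelled heart TIL, with 1.17% and 1.32% of their UMIs. Genes with few UMIs pull the median of all genes down in so small a pool. Medians were therefore taken over genes that would give at least 5 UMIs there at their T cell level. This limit was added after the values were seen. It leaves out genes that are low in T cells, H2-Q10 among them, so the medians do not cover genes found mainly in hepatocytes. The median log2 ratio was then -1.09 over 18 class I genes and -0.84 over 1316 genes in all in liver PC, and -0.61 over 10 and -0.64 over 531 in labelled heart TIL. The ribosomal protein list was at 0.512 (0.496 to 0.528) and 0.632 (0.598 to 0.667) times. Over all cells of the rule the ratios were 0.86 (0.818 to 0.903) and 0.985 (0.909 to 1.07). The enzyme-poor cells held a median of 2.8% and 2.74% class I UMIs against 1.04% and 1.4% in the enzyme-rich cells. Of the 27 and 26 genes compared, 3 were lower (H2-K1, H2-D1 and H2-Q7) and 1 higher (H2-Q10) in enzyme-rich cells of liver PC, and 0 were lower and 1 higher (H2-Q10) in labelled heart TIL. Over all genes 4.5% were higher and 0.994% lower in liver PC, and 2.57% and 0.0961% in labelled heart TIL, so the counts of higher class I genes were near the background. Over all cells of the rule the direction depended on the rule: the log2 ratio of the list, -0.22 and -0.02, was 0.11 and 0.17 with a minimum of 3 rule UMIs and -0.79 and -0.63 with a minimum of 10.

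B2m, the light chain of all class I molecules, gave 1 to 28 UMIs per enzyme-rich cell of liver PC (median 5) and 0 to 9 in labelled heart TIL (median 4). In liver PC the counts of 26 and 28 came from the 2 cells nearest the 2% limit, with enzyme shares of 2.88% and 2.12%, whose class I shares of 3.06% and 2.6% lay above the 0.446 to 1.66% of the other 21. The cell with 28 also held 56 of the 166 monocyte marker UMIs of the 23 cells, 2.97% of its UMIs and 40 of them Lyz2, and the part of such RNA in its class I count was not tested. Without cells under 3% enzyme UMIs, an alternative added after the values were seen, the ratio to T cells was 0.351 (0.296 to 0.414) and 0.55 (0.429 to 0.693) for B2m and 0.431 (0.389 to 0.476) and 0.582 (0.498 to 0.678) for the class I list. The level of B2m over all enzyme-rich cells was 4740.0 (4101 to 5450.2) CPM against 10692 in T cells, and 5901 (4752 to 7246) against 9929. After thinning to 500 UMIs B2m was still found in 23 of 23 and 18 of 19 enzyme-rich cells. The heavy chain H2-K1 was at 0.158 (0.0919 to 0.253) times the T cell level in liver PC and 0.43 (0.229 to 0.736) times in labelled heart TIL, and H2-D1 at 0.359 (0.258 to 0.485) and 0.388 (0.234 to 0.606) times. H2-K1 was found in 4 of 23 (17.4%, 4.95 to 38.8%) and 6 of 19 (31.6%, 12.6 to 56.6%) thinned enzyme-rich cells, and in 72.0% and 61.5% of thinned T cells.

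Class II genes are given beside these class I values. Cd74, the invariant chain of class II that professional antigen-presenting cells express, was 0.491 (0.384 to 0.618) and 0.428 (0.304 to 0.585) times the T cell level in the enzyme-rich cells. The ratios of B2m there were 0.443 (0.384 to 0.51) and 0.594 (0.478 to 0.73). Those of all class II genes together were 0.418 (0.356 to 0.489) and 0.4 (0.319 to 0.496). The class II ratio depended on the T cell gate. In liver PC the class II genes were at 3826 (3254 to 4469) CPM in enzyme-rich cells and 9143 in T cells. In T cells with at least 10 T cell UMIs they were at 3635.5. The part of RNA of other cells in the B2m level was not tested. The donor carried the H-2d haplotype and the reads were aligned to the C57BL/6 reference genome, so counts of single heavy chain genes may differ between donor and recipient cells; this was not tested either.

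H2-Q10, a class I gene whose soluble product the liver secretes, was the exception. It was at 337 (184 to 565) CPM in enzyme-rich cells of liver PC against 29.8 in T cells, and at 259 (70.7 to 664) against 29.3 in labelled heart TIL, on 14 and 4 UMIs. Single genes of peptide supply had wide intervals. The immunoproteasome subunits Psmb8, Psmb9 and Psmb10 were 0.604 (0.41 to 0.857), 0.887 (0.541 to 1.37) and 1.08 (0.671 to 1.66) times the T cell level in liver PC and 0.867 (0.522 to 1.35), 0.751 (0.302 to 1.55) and 0.863 (0.347 to 1.78) times in labelled heart TIL. The proteasome activator subunit Psme1 was 1.45 (1.09 to 1.89) times in liver PC and 1.45 (0.875 to 2.27) times in labelled heart TIL. Tap1, which pumps peptides to the class I heavy chains, gave 4 and 1 UMIs in enzyme-rich cells and Nlrc5, the activator of class I transcription, 0 and 1.

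Interferon-induced genes were divided among themselves. Their sum in enzyme-rich cells was 1.28 (1.18 to 1.39) times the T cell level in liver PC and 1.29 (1.13 to 1.47) times in labelled heart TIL. In liver PC this sum was 14028 CPM, against 10957 in T cells and 7405 in T cells with at least 10 T cell UMIs. Against C1q-high cells it was 0.773 (0.712 to 0.839) and 0.933 (0.813 to 1.06) times, and the class I sum was 0.375 (0.342 to 0.409) and 0.472 (0.41 to 0.542) times. In enzyme-rich cells of liver PC 4 of 51 were higher and 2 lower, and in labelled heart TIL 3 of 51 were higher and 0 lower. These counts stand beside backgrounds of 4.5% and 2.57% of all genes higher, so nothing is read from them, while single members differed widely. Medians were again taken over genes that would give at least 5 UMIs at their T cell level. The median log2 ratio was -0.03 for 19 of the list beside -0.84 for 1316 genes in liver PC. In labelled heart TIL it was -0.87 for 7 beside -0.64 for 531. The limit takes only genes that are high in T cells, so genes that are low there could not enter, Iigp1 and Tgtp1 among them. Of the genes that entered, 21.1% of the list and 45.0% of all were at least 2-fold lower in liver PC. In labelled heart TIL these shares were 14.3% and 32.6%. No direction of the whole list is read from these medians.

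Iigp1, an immunity-related guanosine triphosphatase that attacks the vacuoles of intracellular parasites, had the largest ratio in both libraries of the 10 interferon-induced genes plotted. It gave 0 to 24 UMIs per enzyme-rich cell in liver PC (median 2) and 0 to 8 in labelled heart TIL (median 1). Its level was 1925 (1526 to 2396) CPM against 109 in T cells and 262 in C1q-high cells of liver PC, and 1621 (1049 to 2393) against 121 and 207 in labelled heart TIL. In thinned cells it was found in 10 of 23 (43.5%, 23.2 to 65.5%) and 9 of 19 (47.4%, 24.4 to 71.1%) enzyme-rich cells and in 4.51% and 5.77% of T cells. Tgtp1, of the same family of defence proteins, was 8.4 (4.77 to 13.7) and 7.99 (3.63 to 15.3) times the T cell level. Iigp1 was thus well above both backgrounds in both libraries. On GRCm38 the gene spans chr18:60376027-60392634, Tgtp1 chr11:48985327-48994172, B2m chr2:122147686-122153083 and H2-K1 chr17:33996017-34000347.

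Ifi27, a mitochondrial protein induced by type I interferon, was 5.2 (3.82 to 6.91) times the T cell level in liver PC and 2.67 (1.37 to 4.67) times in labelled heart TIL. Ifitm3, which blocks virus entry, was 2.23 (1.89 to 2.62) and 1.87 (1.43 to 2.4) times, and its level of 3585 CPM in liver PC was near the 3355 of C1q-high cells. Isg15, the ubiquitin-like modifier, was 2.22 (1.37 to 3.39) and 2.2 (0.949 to 4.35) times. The guanylate-binding protein Gbp2 could not be told from the T cell level, at 1.05 (0.601 to 1.71) times in liver PC and 2.03 (0.973 to 3.75) times in labelled heart TIL. Ly6e and Ifi27l2a were below it, at 0.289 (0.189 to 0.423) and 0.287 (0.164 to 0.467) times in liver PC and 0.334 (0.16 to 0.614) and 0.521 (0.269 to 0.911) times in labelled heart TIL.

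Genes of metabolism led the contrast with T cells. The 10 genes with the largest ratios over T cells in liver PC included Uox, Bhmt, Fbp1, Cdo1, Sds, Fabp1, Pcbd1, Cbs and Gsta3, and those of labelled heart TIL included Baat, Sds, Fbp1, Uox, Cps1, Krt8, Mmp7, Selenbp1 and Pcbd1; these ratios are over all rule cells, and the 10 Mmp7 UMIs of labelled heart TIL all lay in 2 enzyme-poor cells, which also held 12 of its 31 Krt8 UMIs. Uox, the urate oxidase that rodents keep, was at 4090.4 (3499 to 4754) CPM in enzyme-rich cells of liver PC and 4734 (3711 to 5952) in labelled heart TIL. Arg1, the last enzyme of the urea cycle, was at 6689 (5926 to 7523) and 7782 (6452 to 9306). The intervals of both genes overlapped between the 2 libraries, and the whole enzyme list held 6.36% and 6.37% of the UMIs of these cells, which the division by enzyme share in part fixed.

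Genes that mark positions along the liver lobule were unevenly seen. Periportal genes, of the zone near the portal vein, were higher in 8 of 11 cases and lower in 1 (Ctsc, a protease that leukocytes also make) in enzyme-rich cells of liver PC, and higher in 7 of 10 in labelled heart TIL, beside 4.5% and 2.57% of all genes; pericentral genes were higher in 4 of 6 cases (Cyp2e1, Oat, Rgn and Cyp2c29) and in 0 of 4. The division of the cells in part fixed these counts, since the enzyme list that made it holds Pck1, Ass1, Cps1, Arg1, Cyp2e1 and Cyp2c29. Outside that list 4 of 7 and 3 of 6 periportal genes and 2 of 4 and 0 of 4 pericentral genes were higher. Among the periportal genes Ass1 of the urea cycle gave 162 and 54 UMIs and Pck1 of glucose synthesis 24 and 10, whereas Cyp2f2 gave 1 and 1. Pericentral genes, of the zone near the central vein, gave 46 UMIs in liver PC and 5 in labelled heart TIL in all, with Cyp2e1 at 8 and 1, Cyp1a2 at 1 and 0 and Glul, the glutamine synthetase, at 2 and 1. The transcription factors of the liver were at the limit of detection: Hnf4a and Nr1h4 gave 5 and 5 UMIs in liver PC and 2 and 0 in labelled heart TIL. Even so, 3 of 8 compared were higher in enzyme-rich cells of liver PC (Hnf4a, Nr1h4 and Nr0b2). In labelled heart TIL 1 of 8 was higher (Hnf4a), and 0 were lower in either library. Of 17 listed genes of epithelial keratins and junctions, 12 and 7 could be compared in enzyme-rich cells. In liver PC 3 were higher (Krt8, Krt18 and Gjb2) and in labelled heart TIL 2 (Krt8 and Krt18), with 0 lower. By size alone 4 were at least 2-fold higher and 4 lower in liver PC, and 2 and 4 in labelled heart TIL. The keratins Krt8 and Krt18 of simple epithelia were at 158 (123 to 201) and 132 (102 to 169) times the T cell level in liver PC and 47.1 (27.6 to 76) and 29.2 (16.4 to 48.5) times in labelled heart TIL. The cell with the most rule UMIs gave 53 of the 97 Krt8 UMIs and 35 of the 88 Krt18 UMIs in liver PC. Without it the ratio of Krt8 was 87.5 (61.8 to 121) in liver PC and, without the same kind of cell, 27.1 (12.7 to 51.1) in labelled heart TIL, and that of Krt18 97.3 (70.8 to 132) and 25.9 (13.6 to 45.2). In liver PC the ratio without this cell was also more than 1.5 times smaller for Hpx, 21.9 (16.1 to 29.1), Hp, 2.86 (2.09 to 3.81), Gc, 47.5 (30.1 to 71.9), Serpina3k, 46.9 (29.7 to 71), Apcs, 24.5 (10.4 to 49.7), Apom, 85.9 (25.7 to 228), and H2-T22, 0.899 (0.292 to 2.1), of the 120 listed genes recomputed.

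Of the 32 enzyme-poor cells, 3 of liver PC (chosen after their values were seen) carried a larger share of plasma protein UMIs than any of the other 71 rule cells. They gave 484 UMIs of rule and secreted protein genes among 3068 UMIs, or 12.9 to 21.2% per cell, and 36 enzyme UMIs; they were chosen for shares of at least 10% and under 2%, so these values describe the choice. Alb gave 66, Hp 54, Hpx 46, Orm1 43, Saa2 37, Saa1 27 and C3 26 UMIs in these 3 cells, whereas Bhmt, Ass1, Adh1, Cdo1 and Krt8 gave 0, which allows up to 978 CPM. Mt1 gave 10 and Mt2 1. Labelled heart TIL held 0 such cells.

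Markers of myeloid cells were counted in the other enzyme-poor cells, with the T cells of the same library as the background. In liver PC 4 cells held 10 to 29 UMIs of the Kupffer cell markers, 0.53 to 1.37% of their UMIs, all above the 99th percentile of T cells, 0.136%. There 6 cells held 40 to 150 neutrophil marker UMIs, 4.49 to 13.9%, where the T cell median was 0.489% and the 99th percentile 11.5%, so 3 of the 6 lay above it. The monocyte markers did not set cells apart: 5 cells held 21 to 108 UMIs, 0.571 to 4.91%, and 0 of them lay above the T cell 99th percentile of 4.92% (median 0.771%). In labelled heart TIL 4 cells held 23 to 84 monocyte marker UMIs, 1.28 to 7.16%, and 1 lay above the 99th percentile of 5.19% (median 1.13%). In liver PC 1 cell, also among those 5 with 20 or more monocyte UMIs, and in labelled heart TIL 2 others held at least 6 UMIs of Krt8 and Krt18 together, with the matrix protease gene Mmp7 (18, 3 and 7 UMIs), osteopontin (Spp1; 49, 25 and 15) and Ttr (6, 6 and 3), with Epcam at 4, 1 and 1 UMIs, Krt19 at 3, 0 and 1, and 0 UMIs of Krt7 and Sox9. The limits, set after the values were seen, were 40 neutrophil, 10 Kupffer cell and 20 monocyte UMIs. The remaining 4 cells in each library lay under them but were not free of these markers, with 4 to 12 monocyte and 3 to 12 neutrophil UMIs in liver PC and 4 to 14 and 0 to 6 in labelled heart TIL. No limit was set for the C1q genes. They gave 10 or more UMIs in 5 and 1 enzyme-poor cells, up to 51 and 35. In 1 of the remaining 4 cells of liver PC they gave 17. No doublet caller was run, and the part of these markers' cells in the values of the 74 cells together was not tested.

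The rule cells of the 2 libraries were compared side by side, as 1 library each. Of 1869 genes, 8 had a whole interval above 2 in liver PC over labelled heart TIL (0.428%) and 4 below 1 / 2 (0.214%); by size alone 17.7% were at least 2-fold higher and 8.51% lower. The largest bound among them was that of Cxcl13, a chemokine that attracts B cells, with 39 UMIs against 0, at least 4.77-fold higher with 3 UMIs as the limit; all 39 lay in 2 of the cells with Kupffer cell markers. Marco and Cd5l, genes of resident macrophages, followed with 37 against 1 and 52 against 2 UMIs, of which the 4 cells with Kupffer cell markers held 30 and 46. Cd5l is 1 of the 4 markers that picked these cells, so its value describes the choice. The Kupffer cell markers were at 123 and 126 CPM in the T cells of the 2 libraries and at 528 and 411 in C1q-high cells. For Cxcl13 and Marco, which had no part in the choice, most UMIs of the liver PC rule cells lay in these 4 cells. Of the acute phase and secreted genes, Orm2 gave 47 against 2 UMIs and Serpina3k 66 against 4, a ratio of 6.05 (2.25 to 22.9).

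By size alone, 14 of 33 secreted protein genes were at least 2-fold higher in the rule cells of liver PC and 0 lower. In enzyme-rich cells 8 of 24 were at least 2-fold higher and 0 lower, with a median log2 ratio of 0.50, where 15.8% of 1046 genes were higher and 10.7% lower; 3 of 5 apolipoproteins, 3 of 4 protease inhibitors and 3 of 18 acute phase genes were higher, and 1 acute phase gene was lower. With the interval, 0 of these genes differed in enzyme-rich cells. For single genes the ratio of liver PC to labelled heart TIL was 1.18 (1.06 to 1.32) for Mt1, 1.33 (1.04 to 1.71) for Saa2, 1.31 (0.975 to 1.78) for Orm1 and 1.19 (0.75 to 1.94) for Iigp1. The ratio of Apoc3 was 2.43 (1.57 to 3.9), which reached below 2, and the cell with the most rule UMIs gave 45 of its 157 UMIs in liver PC. Sds, the periportal serine dehydratase, was lower in liver PC with 23 UMIs in 9 cells against 32 in 13 cells, a ratio of 0.267 (0.149 to 0.47). The leukocyte genes S100a8 and Nkg7 were lower too, at 0.31 (0.214 to 0.449) and 0.172 (0.0819 to 0.344). In the enzyme-rich comparison 1 of 1046 genes was higher (0.0956%) and 6 were lower (0.574%). By the labels the graft organ, the cell preparation and the library all differ between these cells, so they cannot be told apart, although the Alb, cardiac and Kupffer cell transcripts of labelled heart TIL went with liver PC and against its label.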

How the data were processed

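Single cells of 8 libraries were profiled by Microwell-seq, a 3′-end method that captures cells in wells and counts unique molecular identifiers (UMIs). According to the submitters' notes and the methods, the authors demultiplexed reads with bcl2fastq, aligned them with STAR to GRCm38, dropped reads aligned to several places, merged UMIs that differed by 1 base and deposited raw UMI counts per gene and cell, 10000 barcodes per library. BALB/c cells were aligned to a C57BL/6 genome, and gene families with near-identical copies may have lost reads. The authors state limits of 500 UMIs and 10% mitochondrial UMIs. Cells below them were in the tables and were removed here.

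Groups were taken from the sample labels, 1 library each, so no group comparison has a test. UMIs were summed over cells of a class, given as CPM (counts per 1000000 UMIs), and compared as ratios. Intervals are exact 95% intervals: Poisson for a level, conditional binomial (Clopper-Pearson) for a ratio and binomial for a share. A gene was compared when it held at least 10 UMIs, a pseudocount of 1 CPM was added for log2 ratios of single genes, and a count of 0 was limited by 3 UMIs. Shares of cells with a UMI were compared after thinning each cell to 500 UMIs. Totals ranged from 3418722 to 19171264 UMIs per library, and 1 UMI equalled 24.1 CPM in the enzyme-rich cells of liver PC and 64.9 CPM in those of labelled heart TIL.

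Genes named in the text were the 6 rule genes, up to 6 members of each list with the most UMIs in rule cells, defining members at 0, and the 10 genes with the largest ratios to T cells or between the libraries. Other genes named, such as Herpud1, Ctsc, Nlrc5, Tap1, Cd74, Mmp7, Spp1, Ttr in the keratin cells and genes given in a count of 5 or fewer, were chosen after their values were seen. Some genes that the rule picks are not reported here. The cells and the gene lists were chosen with earlier results of these data known. No doublet caller was run; an alternative left out cells with markers of other lineages. Alternatives changed the rule minimum, depth, T cell limit, T cell gate, pseudocount, filter and weighting. Python 3.11.15, NumPy 2.4.6, SciPy 1.17.1, pandas 2.3.3 and matplotlib 3.10.9 were used, and the scripts were tested on simulated data.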

Additional observations from a re-analysis of the deposited data

How the results depend on the processing

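Of 182 alternative values, 89 stayed within the limit and 93 moved, with 0 reversals of a called value; the cause was not tested unless an alternative uses fewer cells or genes by construction. A ratio or share stayed when it lay within the exact 95% interval of the reported value, and a count when it was within 1.5 times. A reversal was called only for a ratio with a reported log2 value of at least 1 in size that changed sign. Counts, shares and the class I and interferon ratios over all rule cells could therefore not be called reversed. The class I ratio did change sign in some settings. Values are given for liver PC and then labelled heart TIL, list ratios to T cells on the log2 scale. The ratios of secreted, acute phase and interferon lists stayed above 0 in all 11 settings, and class I was below 0 in 10 and 7 of 11. The number of rule cells, 45 and 29, became 85 and 113 with a minimum of 3 rule UMIs, 27 and 9 with 10, 22 and 12 with 0 T cell UMIs, 4 and 4 without cells of other-lineage markers and, in labelled heart TIL, 11 with at least 1000 UMIs.

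The list ratios were 3.41 and 2.06 for secreted proteins, 3.0 and 2.11 for acute phase, -0.22 and -0.02 for class I and 0.55 and 0.60 for interferon. With a minimum of 3 they were 2.55 and 1.37, 2.10 and 1.11, 0.11 and 0.17, and 0.64 for interferon in liver PC. With a minimum of 10 they were 3.93 and 2.74, 3.54 and 2.68, -0.79 and -0.63, and 0.38 and 0.45. With at least 1000 UMIs secreted was 3.30 and 1.83 and acute phase 2.92 and 1.94, and in labelled heart TIL class I was 0.25 and interferon 0.79. With 0 T cell UMIs liver PC gave 3.52, 3.23, -0.53 and 0.38, and labelled heart TIL 2.37 for acute phase and -0.18 for class I. Without cells of other-lineage markers, which left 4 rule cells each, they were 5.65 and 4.14, 5.25 and 3.53, -0.56 and -0.68, and 1.13 and 1.56. Leaving out T cells that met the rule minimum gave 3.52 and 3.06 for secreted and acute phase in liver PC. The mean of per-cell CPM gave 3.53 and 2.24 for secreted, and in labelled heart TIL 2.24 for acute phase, -0.25 for class I and 0.41 for interferon.

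Genes past 2-fold against T cells were 2329 higher and 5657 lower in liver PC and 2003 and 6765 in labelled heart TIL. Nothing is read from the lower counts, since simulated unchanged genes gave 5438 and 7176. Lower genes were 3707 and 3868 with a minimum of 3, and higher genes 1319 in labelled heart TIL with 10. Without other-lineage cells 913 and 652 were higher and, in labelled heart TIL, 3279 lower. A pseudocount of 10 CPM gave 1447 higher in liver PC and 1925 and 2862 lower, and a filter of 30 UMIs gave 4505 lower in labelled heart TIL. Between the libraries 330 genes were higher in liver PC, and 199 with a minimum of 10. Thinning to 1000 UMIs in place of 500 moved Mt1 from 89.7% to 63.6% and B2m from 96.6% to 100% of rule cells in labelled heart TIL, and Iigp1 from 24.4% to 52.9% in liver PC, but it also left out 18 of 29 and 11 of 45 cells with fewer UMIs.

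Some alternatives were chosen after seeing the data. No limit on T cell UMIs gave 110 and 70 rule cells. T cells with at least 10 T cell UMIs gave 4.57 and 3.16 for secreted, 3.98 and 3.09 for acute phase, 1.12 and 1.07 for interferon and, in liver PC, -0.035 for class I, with 1042 genes higher and 2367 lower in labelled heart TIL. An enzyme share of 2% or more gave 3.75 and 2.60, 3.61 and 2.74, -1.01 and -0.75, and 0.36 and 0.37, and 165 genes higher between the libraries. Without the cell with most rule UMIs liver PC gave 3.25, 2.89 and -0.14 for secreted, acute phase and class I. No paired analysis was possible because each group held 1 library. Krt8 and Krt18 in enzyme-rich cells, at 7.3 and 7.05 in liver PC, were 6.45 and 6.6 without that cell, and Krt8 in labelled heart TIL moved from 5.56 to 4.76.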
